A study of Drosophila melanogaster with 36 samples.

Results

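Gene expression was compared among 4 inbred lines of Drosophila melanogaster, A1, B1, C1 and D1, that went through the same selection scheme side by side and were all taken in the high direction. Per the labels, a Massachusetts (MA) wild sample was selected in opposite directions for 20 generations to give the high founder H and the low founder L, and both were made isogenic. H and L were crossed to found hybrid populations A, B, C and D, which mixed for 34 generations. Each hybrid population was then selected in both directions for 25 generations and inbred for 10, which gave a high line numbered 1 (A1, B1, C1, D1) and a low line numbered 2 (A2, B2, C2, D2). The labels used here do not name the trait. The high lines were chosen by sample title and hold 12 of the 36 arrays, with 3 arrays a line. The low lines hold another 12 arrays and H and L hold 3 each, and these serve below as points of reference. The remaining 6 arrays are of high and low lines from a separate California population. They entered only the filter and the estimate of the spread between arrays, beside a few marker signals given for reference.

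Wing discs are the larval epithelial sacs that become the adult wing and the body wall around it, and they were dissected late in the third larval instar, at a median of 6.2 hours before pupariation, from flies kept at 20 °C. Shortly before pupariation the disc receives the ecdysone pulse that starts metamorphosis, while the Hedgehog, Dpp, Wingless, Notch and EGFR pathways set the positions of veins and the size of the blade. When inbred lines are drawn from 1 hybrid pool, each line fixes a different mosaic of the chromosome segments of its founders, by chance and by selection, so lines selected alike share some founder segments and differ in others. Each array was made from RNA of discs collected in tubes of 100. Whether a line's 3 arrays stand for 3 cultures is not said in the labels, so p-values measure only how these arrays spread, which may be technical. Each high line is a single inbred line, and the title numbers of its arrays follow each other, so a batch that follows those numbers cannot be told apart from the line. A probe set reads hybridisation to short oligonucleotides, and a sequence difference between the founders under a probe cannot be told apart from a difference in transcript level. In whole discs, fewer cells of a type and less RNA per cell cannot be told apart either.

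The deposited values are MAS5 signals, linear intensities with 1 value for each probe set and array. They were taken to log2, and 9385 of 18769 probe sets passed the filter, a mean log2 value over all 36 arrays in the upper part of the list, split at its median, which is a signal of 259.7. Differences below are in log2 units, so that 1 stands for 2-fold, and errors on them are standard errors of the fit. Errors on signals are SDs over n = 3 arrays. A probe set was called at an adjusted p under 0.05 (limma with Benjamini-Hochberg adjustment, fitted to all 36 arrays). The wing disc genes vg, nub and ap were bright on all 12 arrays, vg from 8682 to 13666, nub from 18274 to 25848 and ap from 17215 to 24121, while the eye gene ey, the neuronal genes nSyb and brp and the germline gene vas had line means of 30.9 to 222, below the filter. Other genes of the eye and neuron lists passed it, eya with line means of 1876 to 3074, sine oculis (so) with 1291 to 2006 and elav with 1056 to 2949, so the wing disc markers were present while those lists were not uniformly absent.

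The F test over the 4 high lines called 2221 of the 9385 probe sets (23.7%), which belong to 1746 genes with a single symbol, and 3356 probe sets had an unadjusted p under 0.05. Most of these differences were modest. The median difference between the highest and the lowest of the 4 line means was 0.30 over all tested probe sets and 0.51 over those called. A difference of at least 2-fold between the extreme lines was reached by 386 called probe sets, one of at least 4-fold by 80, and one of at least 16-fold by 13. Each line's 3 arrays resembled each other more than those of other lines, with a mean correlation of 0.986 within A1, 0.979 within B1, 0.978 within C1 and 0.979 within D1, against means of 0.969 to 0.974 between the arrays of 2 different high lines. The first principal component of the 12 arrays, with 19.4% of their variance, set C1 apart, the second, with 16.7%, separated A1 from B1, and the third, with 14.1%, set D1 apart. The third array of B1 lay between the other B1 arrays and those of C1 on the first component.

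**Figure D1:**
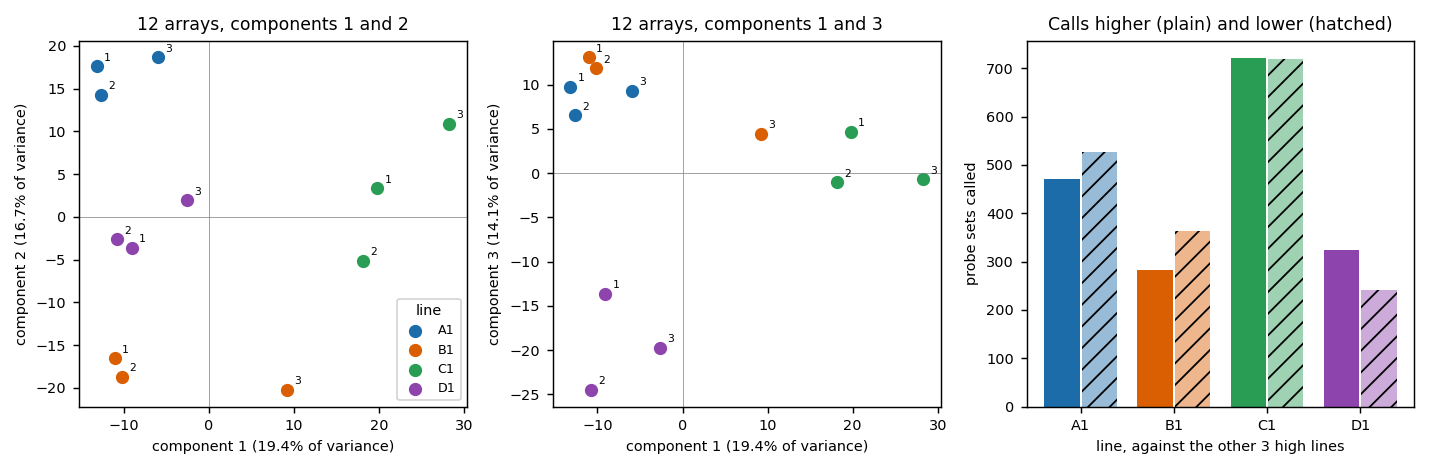
Principal components of the 12 high-line arrays (left and middle; each point is 1 array, with its replicate number; axes in log2 units) and the number of probe sets called higher (plain bars) or lower (hatched bars) in each line than in the mean of the other 3 (right). The C1 arrays lie on the right of component 1, A1 and B1 at opposite ends of component 2 and D1 low on component 3, and C1 has the most calls in both directions.

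Set against the mean of the other 3 high lines, C1 was the most divergent by count and D1 the least. In C1, 1440 probe sets were called (15.3%), 721 higher and 719 lower, of which 127 differed at least 2-fold. In A1, 998 were called (10.6%), 471 higher and 527 lower, with 87 at least 2-fold. In B1, 646 were called (6.88%), 283 higher and 363 lower, with 91 at least 2-fold. In D1, 566 were called (6.03%), 324 higher and 242 lower, with 83 at least 2-fold. The 4 comparisons share arrays, since every line stands on the other side of the other 3 comparisons. The counts depended on single arrays: without replicate 3 of C1 its count was 903, without replicate 2 or 3 of D1 that line's count was 260 or 354, without any single A1 array that line's count was 588 to 631, and without replicate 1 or 2 of B1 that line's count was 426 or 374. The share of higher calls depended on scaling in 3 lines. After median centring of each array, 30.5% of the calls of A1 were higher, against 47.2% as deposited, 64.4% of those of C1, against 50.1%, and 53.3% of those of B1, against 43.8%.

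In pairwise tests the largest counts were those with C1. A1 and C1 differed at 1286 probe sets (13.7%), B1 and C1 at 1078 (11.5%), C1 and D1 at 1003 (10.7%), A1 and B1 at 818 (8.72%), A1 and D1 at 674 (7.18%) and B1 and D1 at 630 (6.71%). These counts also rested on single arrays: without replicate 2 of D1 the count was 344 for A1 and D1 and 631 for C1 and D1, without replicate 2 of B1 it was 575 for B1 and C1 and 397 for B1 and D1, without replicate 3 of C1 it was 643 for B1 and C1, and without any single A1 array it was 408 to 429 for A1 and D1. Without replicate 1 of B1 it was 625 for B1 and C1, and without replicate 3 of D1 it was 404 for B1 and D1. In 732 probe sets (7.80%), 1 line differed from each of the other 3 in the pairwise tests, with the highest count in C1, 283, and the lowest in D1, 93. The low lines diverged less by count: their F test called 1136 probe sets (12.1%), with a median range of 0.26. Without line C1 the F test over the other 3 high lines called 1240, though over 1 line fewer than the low-line test. Of the probe sets called among the high lines, 594 were also called among the low lines, which is 26.7% of the high list and 52.3% of the low list.

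Genes of detoxification were among those that set A1 apart, and at GstE11 and CG1894 it alone of the 4 high lines stood at the level of founder L. GstE11, an epsilon-class glutathione S-transferase that joins glutathione to reactive compounds, read 2667, 2324 and 2083 on the 3 A1 arrays and 28539 to 35204 on the other 9. All A1 arrays were far below all others, and A1 differed from the other 3 lines by -3.77 ± 0.28 (adjusted p = 3.1e-11, limma with Benjamini-Hochberg adjustment). Founder H read 31009.8 ± 2399 and founder L 1725 ± 279.7, so A1 stood at the L level and B1, C1 and D1 at the H level. CG1894 showed the reverse arrangement, with 14478, 12248 and 12606 in A1, 1502, 1543 and 1618 in B1, 278, 391 and 483 in C1 and 543, 556 and 660.5 in D1. A1 was 4.23 ± 0.36 above the other 3 (adjusted p = 6.2e-10), and the 3 arrays of A1 overlapped no other line. H read 374 ± 76.6 and L 14872 ± 1051 for this gene.

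GstE1, another epsilon-class transferase, split the lines into a high pair and a low pair. It read 3751, 3239.9 and 3293 in A1 and 924, 2956 and 2148 in D1, against 328, 314 and 133 in B1 and 472, 537 and 352 in C1. The arrays of A1 and D1 lay above all arrays of B1 and C1, with A1 2.57 ± 0.35 (adjusted p = 5.7e-06) and B1 -2.55 ± 0.35 (adjusted p = 4.9e-06) against their 3 counterparts. H and L did not differ at this gene past the threshold, at 4822 ± 458 and 3934 ± 423, and both were above B1 and C1. GstE6 was highest in A1, 1491, 1694 and 1426, against 309 to 642 on the other 9 arrays (1.70 ± 0.15 for A1, adjusted p = 2.4e-09). Among all 24 tested glutathione S-transferases, 13 were called by the F test, and their median range was 0.53 against 0.28 over the 7222 genes tested, of which 23.1% were called. The 13 did not move as a block: in A1, 5 were called higher and 2 lower, in B1 3 and 1, in C1 2 and 7, in D1 2 and 4. Epsilon-class transferases lie side by side on arm 2R and resemble each other in sequence, so signal shared among these probe sets cannot be told apart from their own.

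Cyp6g1, a cytochrome P450 known for its part in insecticide resistance, ranged over 5.10 log2 units. It read 2511, 1971 and 2234 in A1, 1064, 1529 and 1399.8 in D1, 308, 356 and 375 in B1 and 114, 65.1 and 37.1 in C1. The 4 lines did not overlap and stood in that order, with H at 2172 ± 178 and L at 70.2 ± 54.0, so A1 was at the H level and C1 at the L level. Of 29 tested P450 genes, 3 were called. The count was 1 with the stricter filter, which left Cyp6g1 untested. Cyp4e2, also a P450, was low in B1 alone, with 3539, 3527 and 3290.3 against 7486 to 10698 in the other high lines (-1.41 ± 0.10, adjusted p = 8.3e-12). The founders did not differ past the threshold there, with H at 9068 ± 45 and L at 8172 ± 1305.

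Arc1 encodes a capsid-forming relative of retroviral Gag proteins that carries RNA between cells. It was high in A1, 12499, 14477 and 13305, and lower in the 9 other arrays, at 1841 to 6628. A1 stood 2.22 ± 0.16 above the other 3 (adjusted p = 2.7e-11) and matched H (12845 ± 2485) rather than L (4098 ± 608). A further Arc1 probe set gave 1.54 for A1 (adjusted p = 4.4e-05). The transcript of the long noncoding gene lncRNA:CR42862 was lowest in A1, with 15, 60.2 and 39.3 in A1 and 1821, 2638 and 1680.3 in D1. The A1 values lay near background and below the 9 other arrays, and the low line A2 of the same hybrid population was also low, at 97.6 ± 88.2, while B2, C2 and D2 averaged 1307 to 3024. Of its other probe sets, one gave -0.46 for A1 (adjusted p = 0.014) and one was not called in A1 (adjusted p = 0.29), so its probe sets differed in size. CG31436 was lowest in A1, 52.7, 156 and 85.3, against 301 to 1332 elsewhere (-3.10 ± 0.34, adjusted p = 1.2e-07). The cuticle gene Cpr72Ea was highest in A1, 1931, 1813 and 2067, with the other 9 arrays at 419.9 to 1159 (1.63 ± 0.24, adjusted p = 2.6e-05).

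**Figure D2:**
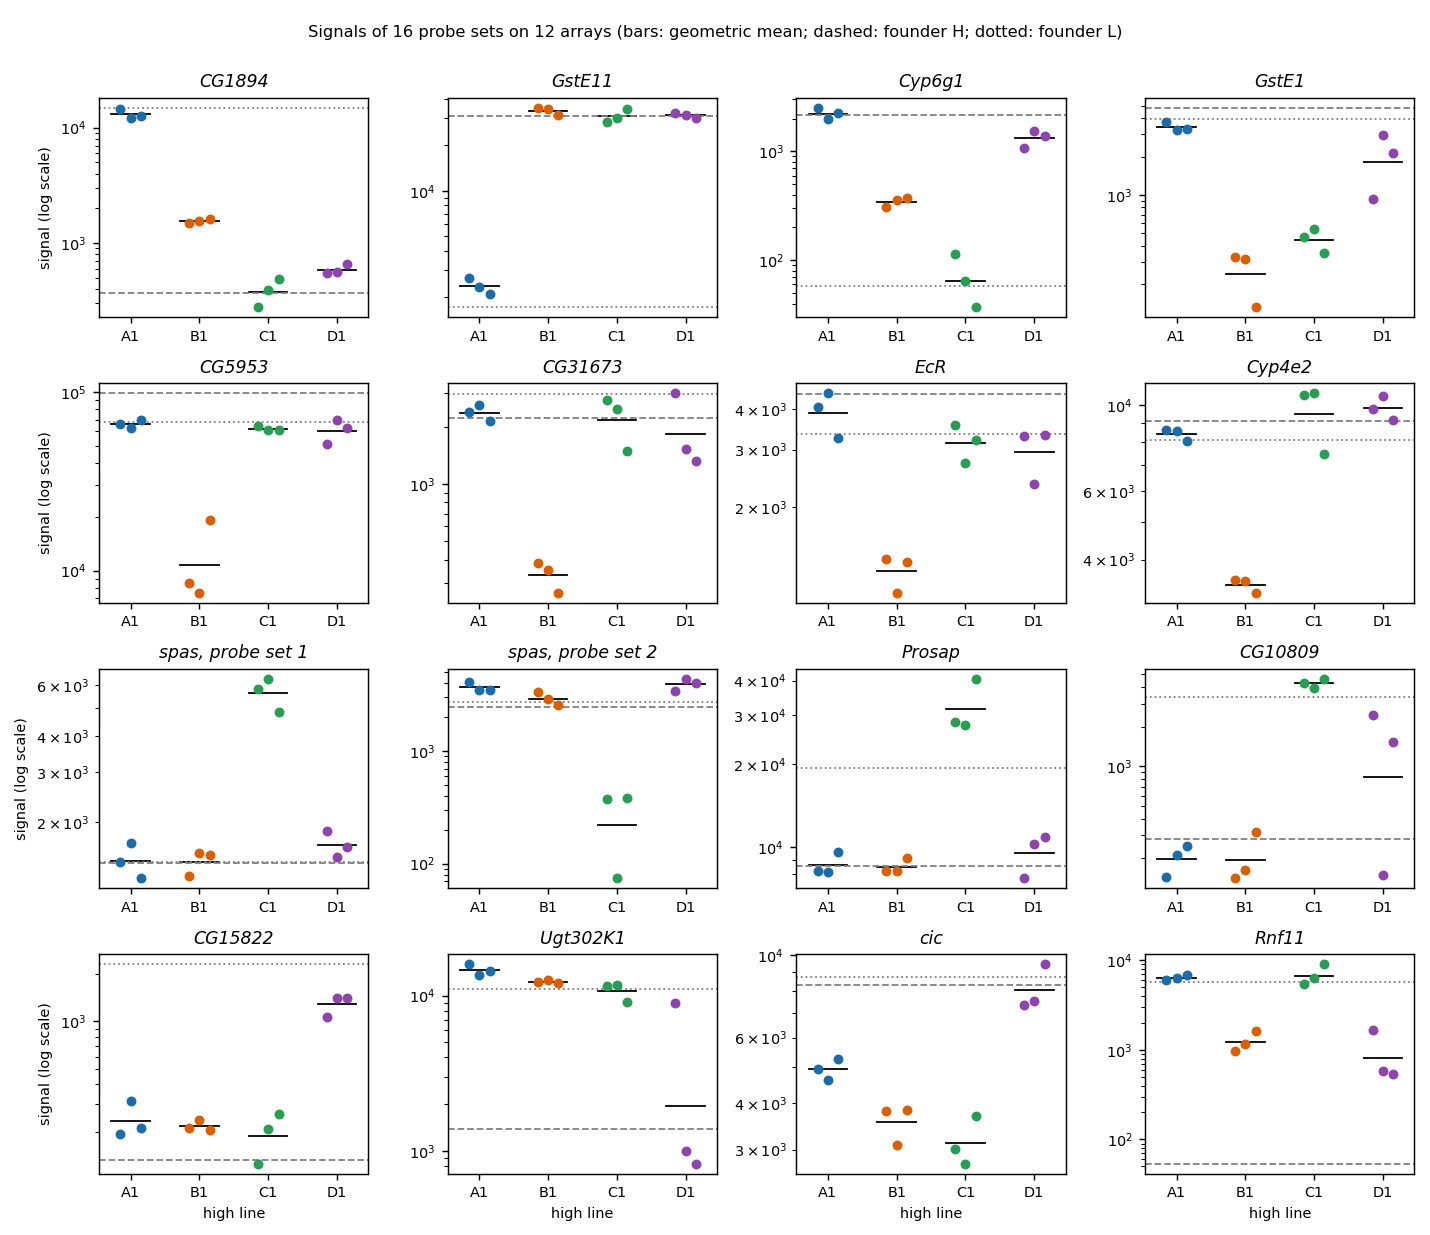
Signals (log axis) of 16 probe sets on the 12 high-line arrays; points are arrays, short bars geometric means of a line, dashed and dotted lines the founders H and L. GstE11 in A1, CG5953 in B1 and the second spas probe set in C1 lie far below the other 3 lines, while D1 arrays split at Ugt302K1 and CG10809.

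At several genes B1 had a lower signal than every other Massachusetts line. CG5953 read 8537, 7531 and 19280.1 in B1 and 51023 to 69724 in the other high lines, -2.55 ± 0.15 for B1 (adjusted p = 5.6e-14). All other Massachusetts lines averaged 61024 or more, with H at 98427 ± 11099 and L at 68102 ± 7991, so the B1 level was that of neither founder. A further CG5953 probe set was not called in B1 (-0.59, adjusted p = 0.11), so the loss was not read by both. CG31673 behaved alike, with 386, 351 and 269 in B1 and 1326 to 2999.9 in the other 9 arrays (-2.67 ± 0.17, adjusted p = 1.6e-13) and founders at 2242 ± 118 for H and 2988 ± 162 for L. In the other direction, CG10132 read 2354, 1084 and 2309.9 in B1 against 90.7 to 475 (2.77 ± 0.46, adjusted p = 1.1e-04), and CG10730 read 755, 657 and 717 against 132 to 354 (1.56 ± 0.20, adjusted p = 1.4e-06). Both were above every other Massachusetts line in pairwise tests. All 4 genes lie on arm 2L.

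EcR, the nuclear receptor for ecdysone, was lowest in B1. It read 1386, 1092 and 1354 in B1, 4050.5, 4462 and 3263 in A1, 3564, 2731 and 3205 in C1 and 3296, 2356 and 3334 in D1. All B1 arrays lay below the other 9, and B1 differed from the other 3 lines by -1.38 ± 0.17 (adjusted p = 1.0e-06) and from each of the other 9 Massachusetts lines in pairwise tests. Founders H and L were at 4476 ± 664 and 3426 ± 898. The TNF receptor gene grnd was highest in B1, 8573, 6038 and 8971 against 3438 to 4222 (0.99 ± 0.10, adjusted p = 4.4e-08), at the level of L (7800.2 ± 452) rather than of H (4794 ± 348). Pgant2, which starts O-linked glycosylation, was high in B1, 1092, 1114 and 1297, and in D1, 600.1, 889 and 1002, and low in A1, 199.7, 189 and 246, and in C1, 208, 306 and 249.7. L read 1106 ± 95.4 and H 294 ± 92.6, so B1 carried the L level and A1 and C1 the H level. Ptr, a relative of the Hedgehog receptor Patched, was -1.91 ± 0.41 in B1 (adjusted p = 0.0026), but its signals of 24.5, 60.9 and 104 were near background and the call was lost without replicate 1 of B1 (adjusted p = 0.084).

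In 116 probe sets (1.24%), 1 high line differed in the same direction from all 9 other Massachusetts lines, founders included. B1 held 42 of them, 35 lower and 7 higher, C1 held 43, 24 higher and 19 lower, A1 27, 12 higher and 15 lower, and D1 4, all lower. By arm, 18 of the 42 of B1 lay on 2L, 9 on 2R, 1 on 3R and 0 on X, 3L and 4, with 14 not placed on an arm. Those of C1 were spread over X (10), 2L (8), 2R (7), 3L (4) and 3R (11). Without both C1 arrays that carried fat body signal, described below, the count over all 4 lines was 195. Of all tested probe sets on 2L, 11.7% were called in B1, against 3.90% on 3R. On 2L, 4 adjacent tested genes, Vps52, Elp4, Cox11 and CG31915, were each lower in B1 than in every other high line.

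Line C1 differed at spas, which encodes the microtubule-severing protein spastin, in opposite directions at its 2 probe sets. The first read 5825, 6315 and 4845 in C1 and 1279 to 1864 in the other 9 arrays (1.88 ± 0.13, adjusted p = 2.0e-11). The second read 373, 74.5 and 385 in C1 and 2553 to 4383 elsewhere (-3.98 ± 0.26, adjusted p = 2.4e-12). Both founders and all low lines were at the level of A1, B1 and D1 at both probe sets, with means of 1181 to 1818 at the first and 2488 to 3637 at the second. No overall direction for the gene was therefore readable in C1. Prosap, the fly Shank protein of the synaptic scaffold, read 28256, 27663 and 40551 in C1 against 7742 to 10862 (1.83 ± 0.12, adjusted p = 2.4e-12), above both L (19368 ± 21.5) and H (8633 ± 1149.7). A further probe set was higher in C1 (0.99, adjusted p = 3.7e-10) and another was lower (-0.88, adjusted p = 0.0018).

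CG10809 was near the L level in C1, with 4299, 3909 and 4618, while A1 read 144, 213 and 249 and B1 142, 164 and 315. C1 was 3.75 ± 0.40 above the other 3 lines (adjusted p = 6.7e-08), and the founders were at 3365 ± 55.5 for L and 279 ± 26.4 for H. D1 was split, at 2458, 149 and 1532, so 1 D1 array was at the H level and the other 2 between the founders. The muscle gene sls, which encodes a titin-like protein, was lowest in C1 at 99.1, 118 and 59.0, with B1 at 307, 328 and 237 and A1 and D1 at 673 to 824 (-2.64 ± 0.24 for C1, adjusted p = 5.0e-09). At its second probe set C1 was not called (-0.49, adjusted p = 0.20). lola, a BTB zinc finger gene with many alternative transcripts, was higher in C1 at 1 probe set, 1037, 1115 and 2021 against 352 to 914 (1.32 ± 0.26, adjusted p = 7.4e-04). Of its 14 other tested probe sets, 3 were called in C1, all higher.

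Line D1 had the fewest genes of its own. CG15822 read 1060.5, 1413 and 1416 in D1 and 127 to 316 elsewhere (2.59 ± 0.27, adjusted p = 7.9e-08), between H (165 ± 109) and L (2342 ± 549.7). Ugt302K1, a UDP-glycosyltransferase gene, read 8947, 999.7 and 827 in D1, 15876, 13601 and 14422 in A1, 12282, 12647 and 11999.9 in B1 and 11462, 11765 and 9040.3 in C1. D1 was -2.67 ± 0.36 (adjusted p = 5.9e-06), and 2 of its arrays were at the level of H (1385 ± 125) while the first was close to that of L (11068 ± 332). CG15353 was lowest in D1, 10711, 6602 and 6044, with the other 9 arrays at 12120.4 to 26171 (-1.31 ± 0.15, adjusted p = 5.8e-07). Weaker D1 calls were haf (1.82 ± 0.37), lilli, of the AF4 family of transcription elongation genes (1.77 ± 0.43), CG10877 (-1.05 ± 0.24) and atilla, a lamellocyte surface protein (-1.06 ± 0.28). Each of these 4 lost its call in at least 1 alternative, haf at an adjusted p of 0.092 and lilli at 0.058 in a fit to the 12 high arrays alone, CG10877 at 0.11 without replicate 3 of D1 and atilla at 0.22 without replicate 2 of D1.

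Other genes divided the 4 lines in pairs, and at several of them the pairs stood at the levels of the founders. Rnf11, a RING finger ubiquitin ligase gene on chromosome 4, read 6052, 6326 and 6790.5 in A1 and 5416, 6351 and 9007 in C1 against 982, 1174 and 1642 in B1 and 1679, 581 and 541 in D1 (adjusted p = 1.1e-08, F test in limma). A1 and C1 were at the L level of 5741 ± 658, while B1 and D1 were below it and still far above H, at 63.1 ± 45.8. A further Rnf11 probe set also had the means of A1 and C1 above those of B1 and D1, but over a range of 1.47. Against the other 3 lines, C1 was called there (1.00, adjusted p = 0.012, limma), as was D1 (-0.96, adjusted p = 0.033), and A1 was not (0.26, adjusted p = 0.64). CG5326 read higher in B1 and D1, 3193 to 7968, than in A1 and C1, 1199 to 2763, with H at 6696 ± 491 and L at 1082 ± 116, and its second probe set gave the same split. CG31955 was high in B1 and C1, 1203 to 1692, and low in A1 and D1, 316 to 409, with L at 1335 ± 48.2 and H at 403 ± 145. CG16704 had the same split, 610.2 to 1050.4 against 139 to 223, with L at 613 ± 52.6 and H at 240.4 ± 22.4. CG32091 was high in C1 and D1, 2885 to 4163, and low in A1 and B1, 728 to 1058, with L at 3796 ± 79.3 and H at 969.9 ± 81.6. CG34227 and Fili were split without a call between the founders, CG34227 at 880.3 to 5220.5 in A1 and D1 against 99.7 to 849 in B1 and C1, and Fili, a leucine-rich repeat protein, at 533 to 1187 in B1 and D1 against 116 to 483 in A1 and C1. A further Fili probe set had the same split over a range of 0.72, and another was not called (adjusted p = 0.55, F test in limma).

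The founders themselves differed at 2106 probe sets (22.4%), 329 of them at least 2-fold (3.51%). Of the 2221 probe sets called among the high lines, 841 were called between H and L, which is 37.9% of the high-line calls and 39.9% of the founder calls, and 1380 were not. At the 329 probe sets, the mean of each line was placed nearer to H or nearer to L on the log2 scale. D1 was nearer to H at 75.4% of them, A1 at 72.9%, B1 at 70.8% and C1 at 64.4%, while the low lines were nearer to H at 14.6% to 23.7%. All 4 high lines were nearer to H at 138 of the 329 and none of them at 22. Of the 329, 167 were called by the F test over the high lines, and there 41 had all 4 lines nearer to H, 62 had 3 lines, 31 had 2, 25 had 1 and 8 had none. C1 was on the L side the most often in these 167, at 76, and D1 the least often, at 47.

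In gene order the nearer founder formed patches, some of them shared by several high lines. A level outside both founders was counted with the nearer one. At the 167 probe sets called by the F test, 9.58% (D1) to 15.6% (C1) of the means of a high line lay over 0.5 outside both founders. Of the 329 probe sets, 245 genes with a single symbol and a place on an arm were taken, 1 probe set a gene. Neighbours among them on the same arm were in the same state at 71.5% of 239 pairs in A1, 70.7% in B1, 72.0% in C1 and 71.1% in D1, while all pairs on an arm agreed at 63.4%, 63.0%, 57.0% and 64.8%. No test was made of this difference. In C1, 10 neighbours on 2L from Frmd5 to l(2)34Fc were all nearer to L, as were 8 on 3R from CG7054 to Saf-B and 6 on 2R from CG6357 to Cpr51A, a stretch that holds Prosap and Arc1. In A1, 7 on 3R from nAChRbeta2 to grass were nearer to L, a stretch that holds CG31436, and its first 4 genes, up to Saf-B, were nearer to L in B1 and C1 as well. On 2L, 4 neighbours from CG31869 to Cog8 were nearer to L in A1, C1 and D1. Another 5 on 3R, from CG6574 to CG5167, among them Ugt302K1, were nearer to L in B1 and C1, as were 4 of them, all but CG17738, in A1. In D1, 6 on 2L from haf to Pgant2, among them CG15353, were nearer to L. On X, A1 was nearer to H at 14 of 15 genes, C1 at 13, B1 at 12 and D1 at 11. On 3R the shares were 62.1% in A1, 67.2% in B1, 51.7% in C1 and 74.1% in D1 of 58 genes. Of 6 such genes on chromosome 4, Zip102B, Rnf11 and PMCA were nearer to L in all 4 high lines.

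**Figure D3:**
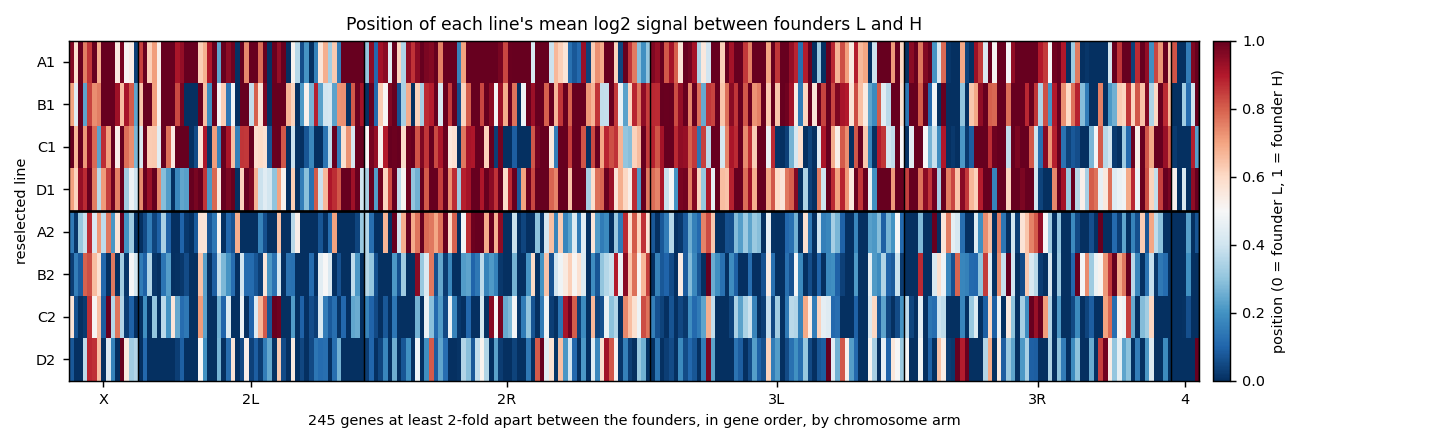
Position of each reselected line's mean log2 signal between founder L (0, blue) and founder H (1, red; values outside are drawn at the ends) at 245 genes at least 2-fold apart between the founders, in gene order by chromosome arm, with high lines above and low lines below the black line. High lines are mostly red with blue patches, such as the stretches on 2L and 3R in C1, some shared between lines, and low lines are mostly blue.

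The 3 arrays of a line also differed more from each other at founder genes than elsewhere. The median SD between the arrays of D1 was 0.28 at the 329 probe sets and 0.13 at the other 9056, in A1 0.18 against 0.10, in B1 0.23 against 0.14 and in C1 0.24 against 0.15. In D1 the 3 arrays fell on both sides of the midpoint between the founders at 99 of the 329 probe sets, and at 51 of these the first array stood alone. In A1 this was so at 52 probe sets, in B1 at 77 and in C1 at 74, where the third array stood alone at 34. The low lines showed the same, with median SDs of 0.21 to 0.28 against 0.12 to 0.15, and B2 had arrays on both sides at 91 probe sets. Founder probe sets and the others were not matched for signal level, and no test was made of this spread. Ugt302K1, Rnf11 and CG31436 are examples in D1, where CG31436 read 1332, 301 and 313.

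Divergence by chromosome arm was uneven. On chromosome 4, a small and mostly heterochromatic chromosome, 21 of 51 tested probe sets were called by the F test (41.2%), on 2L 28.9%, on 2R 25.5%, on X 22.1%, on 3L 20.9% and on 3R 20.8%. Genes of 1 arm share segments and are not independent, so no test was made. D1 had 9.45% of its 2L probe sets called and 3.87% of its X probe sets. C1 had 13.9% to 16.6% on the 5 large arms. On 2R, 3 adjacent tested genes, Sox15, CG8468 and Opa1, were each lower in C1 than in every other high line.

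The levels that set a high line apart were only in part those of the low line drawn from the same hybrid population. A2 differed from the other 3 low lines at 690 probe sets (7.35%), B2 at 579 (6.17%), C2 at 175 (1.86%) and D2 at 270 (2.88%). Of the calls of D1, 68.2% had the same sign in D2, of A1 66.9% in A2, of B1 55.9% in B2 and of C1 50% in C2. Over all tested probe sets the shares were 57.8% in population A, 56.9% in B, 50.3% in C and 58.3% in D. Called on both sides with the same sign were 94 probe sets in population A, 52 in B, 23 in C and 41 in D, and called with opposite signs 37, 26, 32 and 18. A test of the difference between the high-line effect and the low-line effect called 523 probe sets in population A (5.57%), 406 in B (4.33%), 753 in C (8.02%) and 258 in D (2.75%). Without replicate 1, 2 or 3 of B1 the count in population B was 267, 262 or 684, without replicate 2 of A1 that in population A was 302, and without replicate 2 of D1 that in population D was 160. CG1894, GstE11, Arc1 and CG31436 in A1, CG5953 and CG31673 in B1, and both spas probe sets and CG10809 in C1 were among the differences called. In D1, CG15822 and Ugt302K1 were called, while lncRNA:CR42862, CG15353, haf, lilli, CG10877 and atilla were not. Also not called were lncRNA:CR42862 (adjusted p = 1) and Cyp6g1 in A1, and CG10132 and Ptr in B1. These genes were chosen for their difference in the high line, which is itself a part of this test.

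**Figure D4:**
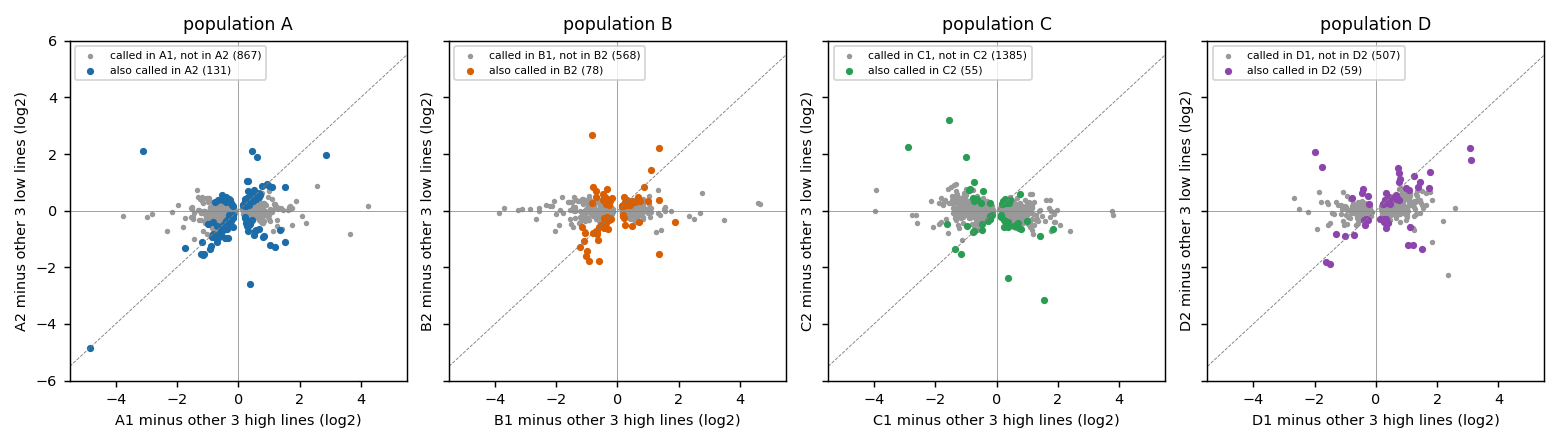
Difference of each high line from the other 3 high lines (x axis, log2) against that of the low line of the same population from the other 3 low lines (y axis, log2), for probe sets called in the high line; coloured points were also called in the low line, and the dashed diagonal marks equal differences. Most points lie along the horizontal axis, and the coloured ones number 131, 78, 55 and 59 in populations A to D.

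Signalling pathways of the disc were compared with the background of all tested genes, 23.1% of which were called, with a median range of 0.28. Members named below with a range under 1 were chosen after their values were seen. The EGFR pathway, which specifies veins and drives growth, had 8 of 14 members called with a median range of 0.33, and in 7 of the 8 D1 had the highest mean and C1 or B1 the lowest. The repressor gene cic, which EGFR signalling switches off, read 7335, 7545 and 9445 in D1, 4955, 4611 and 5252 in A1, 3821, 3090.1 and 3844 in B1 and 3004, 2753 and 3698 in C1. D1 lay above all other arrays (1.08 ± 0.17, adjusted p = 8.4e-05), near both founders (H 8398 ± 1415, L 8827 ± 1825). Cbl, a ubiquitin ligase that sends the receptor to degradation, read 4849.7, 6029.6 and 5599 in C1 and 6538 to 13388 in the other 9 arrays (-0.89 ± 0.11, adjusted p = 1.2e-06). kek1, a transmembrane inhibitor of the receptor, was also lowest in C1, 2779, 2907 and 3567 against 4228 to 6288 (-0.79 ± 0.12, adjusted p = 3.8e-05). The receptor gene Egfr itself was 0.33 in D1 (adjusted p = 0.023) and -0.32 in C1 (adjusted p = 0.015). After median centring, 6 of the 14 were called, and with quantile normalization 7. Without replicate 2 of B1 or of D1 the count was 4, and without replicate 1 of A1 or of B1 it was 5. With the 12 high arrays alone it was 4, and without a filter or an intensity trend 5.

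In the Dpp pathway, 8 of 19 members were called with a median range of 0.23. The Dpp target gene bi was higher in C1 than in the other lines (0.34, adjusted p = 0.0095), as was salr (0.38, adjusted p = 0.04), while salm was highest in D1 (0.27, adjusted p = 0.048). tld, a protease that frees Dpp from its inhibitor, was lowest in C1 (-0.62, adjusted p = 0.026). Med, the co-Smad of the pathway, read 186, 199.7 and 836 in C1 and 1383, 1053 and 1103 in D1, and the arrays of C1 and B1 (176, 593 and 1057) varied by over 4-fold within a line. Without replicate 3 of C1 the list had 4 calls, and without replicate 1 or 2 of C1 or replicate 2 of D1 it had 5. The list had 4 calls with the 12 high arrays alone, 5 without a filter or without an intensity trend, and 1 without both C1 arrays that carried fat body signal. The call of Med was lost in a fit to the 12 high arrays alone (adjusted p = 0.10). The Hedgehog pathway had 4 of 15 members called (ihog, ci, en and cos, each with a range under 0.4), the Wingless pathway 2 of 11 (wls and sc), the Notch pathway 2 of 12 (H and pen-2), and the Enhancer of split and Bearded genes, the usual transcriptional readout of Notch, 5 of 11. Of those 5, 4 were lower in C1, E(spl)m7-HLH by -0.51 (adjusted p = 5.1e-04) and Brd by -0.47 (adjusted p = 1.2e-04). Without replicate 3 of A1 that list had 3 calls. The Notch count was 4 without replicate 3 of B1 and 1 without replicate 2 of B1 or of D1, and the Wingless count was 4 without replicate 3 of C1 and 1 without any single A1 or D1 array or replicate 1 or 2 of B1.

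Genes that place the veins had 7 of 20 members called, each of them also called in C1 except salm. kni, which positions the second longitudinal vein, was higher in D1 (0.46, adjusted p = 6.2e-04) and A1 (0.35, adjusted p = 0.0057) and lower in B1 (-0.36, adjusted p = 0.0053) and C1 (-0.45, adjusted p = 3.9e-04), with line means of 6254 in A1, 4350.2 in B1, 4126 in C1 and 6619.7 in D1. emc, an inhibitor of proneural proteins, was higher in C1 (0.39, adjusted p = 1.4e-04). Without replicate 3 of C1 the list had 3 calls. Hippo and Fat growth genes had 4 of 16 members called, among them crb, an apical membrane protein, which was higher in D1 (0.39, adjusted p = 0.001) and lower in C1 (-0.38, adjusted p = 5.6e-04). Planar polarity genes had 4 of 11 called, with in, which acts where wing hairs form, highest in B1 (0.63, adjusted p = 5.4e-06). Wing pouch and hinge genes had 5 of 17 called and notum genes 4 of 13, all with a range under 1. Leaving out single arrays gave 2 to 4 calls for Hippo and Fat, 2 without replicate 1 or 2 of B1, replicate 3 of C1 or replicate 1 of D1. For pouch and hinge the count was 3 without replicate 3 of A1 or replicate 1 of B1. For notum it was 1 without replicate 2 of B1 or replicate 1 of C1 and 2 without replicate 1 of B1.

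The ecdysone response had 8 of 17 members called with a median range of 0.60, and 7 of the 17 were called in C1, 6 higher and 1 lower, where 1073 of all 7222 genes were called in C1. br, an ecdysone-induced zinc finger gene, averaged 46304 in A1, 53116 in B1, 76209 in C1 and 51546 in D1 (0.61 for C1, adjusted p = 4.8e-05). ImpE1 was also higher in C1 (0.75, adjusted p = 0.0018), as was ImpL2, which binds and blocks insulin-like peptides, at 9029, 8638 and 11352 against 4069 to 7932 (0.92 ± 0.14, adjusted p = 3.9e-05). The nuclear receptor genes Hr3 and Hr4 differed in direction: Hr4 was lowest in C1, 2584, 2806 and 3026 against 3666 to 7822 (-0.81 ± 0.19, adjusted p = 0.003), and Hr3 was 1.03 ± 0.33 (adjusted p = 0.031). The F-test call of Hr3 was lost in 8 of 20 alternatives. Its adjusted p in that test was 0.070 after quantile normalization, 0.11 without replicate 2 of A1 and 0.13 without replicate 3 of C1. With quantile normalization 5 of the 17 were called. Without replicate 3 of C1, in the fit to the 12 high arrays alone and with the stricter filter, which left EcR and Hr3 untested, the count was also 5. Fat body signal moved with C1 on 2 of its 3 arrays, as given below, and its part in these calls was not tested. Insulin and TOR genes had 5 of 11 called, with 3 after either other scaling and without replicate 3 of A1 or of B1, and InR, the insulin receptor, was lower in B1 (-0.45, adjusted p = 0.012).

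Cytosolic ribosomal proteins gave the highest share of any list as deposited, 29 of 38 called, with a median range of 0.35, and the count depended on which scaling was used. Their median signal was 84786, 84629 and 88479 on the A1 arrays and 99256 to 114130 on the other 9. In A1, 29 were called lower and 1 higher, and in C1 17 higher and 0 lower, with medians of -0.29 in A1, 0.10 in B1, 0.14 in C1 and 0.04 in D1. After quantile normalization the medians were 0.02 in A1, 0.01 in B1, -0.01 in C1 and -0.01 in D1, so the direction turned in A1, C1 and D1, and 7 of the 38 were called. After median centring 31 were called, with 30 lower in A1 (median -0.34) and 24 higher in C1 (median 0.17). Of 439 other probe sets in the brightest 5%, 158 were called lower in A1 and 4 higher as deposited, with a median of -0.11, and 119 higher and 19 lower in C1, with a median of 0.08. Mitochondrial ribosomal proteins had 11 of 69 called, below the background share. Oxidative phosphorylation subunits had 13 of 55, proteasome subunits 4 of 29, and cell cycle and replication genes 4 of 26, of which none was called without replicate 1 of C1 and 2 without any single A1 array, replicate 1 or 2 of B1 or replicate 2 of D1.

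Among smaller groups, 4 of 38 structural cuticle genes were called, which included Cpr51A, -1.56 ± 0.25 in C1 (adjusted p = 4.4e-05), and TwdlE, -0.88 ± 0.09 in C1 (adjusted p = 5.7e-08). Chromatin genes had 6 of 22 called, with Sce, a Polycomb ubiquitin ligase, higher in C1 (0.73, adjusted p = 0.0029) and esc, a subunit of the Polycomb methyltransferase complex, lower in D1 (-0.75, adjusted p = 2.6e-08). mof, the acetyltransferase of the male dosage compensation complex, was lower in C1 (-0.77, adjusted p = 6.6e-04), while 3 of the 4 such genes called in C1 were higher. By the F test 2 of 9 such genes were called, mof among them, and 4 were called without replicate 3 of B1. Apoptosis and JNK genes had 5 of 14 called, immune genes 4 of 17, heat shock genes 4 of 13, serpins 3 of 11 and adult muscle precursor genes 4 of 11. None of 28 tested odorant, gustatory and ionotropic receptor genes was called by limma's F test. Of 10 odorant-binding and related proteins 4 were called, among them Obp56a, highest in B1 at 8070.3, 9464 and 7303 against 3514 to 7162 (0.74 ± 0.11, adjusted p = 2.9e-05). The tracheal list had 6 of 10 called, with the chitin deacetylase genes serp and verm lowest in A1 (-0.59, adjusted p = 6.8e-05, and -0.61, adjusted p = 9.4e-04), and both are also expressed in epidermal cells that make cuticle.

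Among the high lines, summed signals of the fat body list and of the salivary gland and gut list were highest on arrays of C1. Those of the blood cell list were highest in A1, and those of the tracheal, neuron and germline lists in D1. Lsp2, a larval serum protein of the fat body, read 4830.0, 4924 and 920.3 in C1 and 472 to 1135 on the other 9 high arrays, and Fbp1, a fat body receptor that the filter left out, read 2016, 1828 and 109.7 and 30.6 to 149. The first and second C1 arrays were thus high and the third was not. The summed signal of the 7 fat body genes on the array was 9738, 9289.9 and 3163 in C1 and 1786 to 2906 in the other high lines. A like sum, 8988, was found on the third array of the California low line. The F-test call of Lsp2 was lost without either of the 2 arrays (adjusted p = 0.090 and 0.086) and without both (C1 then 0.55 over B1). The F-test call of Obp99b, with 2182, 2029.8 and 679 in C1, was lost only without both (C1 then 2.60 over D1). Lsd-1, a lipid droplet protein, was high on all 3 C1 arrays, 1181, 1169 and 904, and also varied in D1, 1153, 426 and 754. Among the high lines, the glue genes of the salivary gland were highest on the third C1 array, with Sgs3 at 50.6, 55 and 1851, and 0 of 4 tested genes of that list were called. The summed signal of the salivary gland and gut list was higher on the first array of low line D2, 19304, than the 10357 on the third C1 array. That array also had the highest 3' over 5' ratio of the array's own control transcripts, 3.54 for actin against at most 2.13 on the other 11, 4.46 for GAPDH against at most 3.22 and 4.42 for eIF-4a against at most 3.06. How far these signals bear on the other calls of C1 was not tested. Without the first 2 arrays the C1 count was 1252, which rests on the third array alone, the one with high glue genes and 3' over 5' ratios, and on the assumption that it varied like the other lines.

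**Figure D5:**
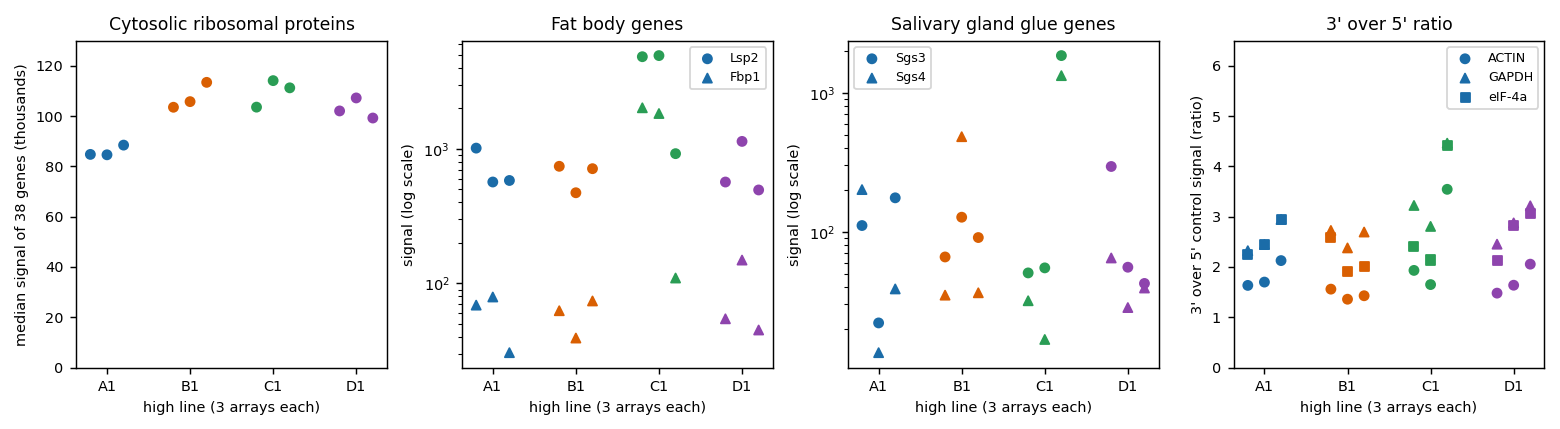
Measures by array in the 4 high lines, 3 arrays each: median signal of 38 cytosolic ribosomal protein genes, signals of 2 fat body genes and of 2 salivary gland glue genes (log axes), and the 3' over 5' ratio of 3 control transcripts. As deposited, A1 lies below the other lines for ribosomal proteins, a direction that quantile normalization turned, and the first 2 C1 arrays are high for fat body genes and the third C1 array for glue genes and for all 3 ratios.

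Blood cell markers had 7 of 13 members called, with a median range of 0.74. The summed signal of the 19 markers on the array was 15855 to 18744 in A1, 12768 to 17603 in B1, 11334 to 13478 in C1 and 11889 to 16267 in D1, so the ranges of the lines overlapped except those of A1 and C1. In C1, 3 members were called lower and 1 higher. The plasmatocyte receptor NimC1 was lower (-0.62, adjusted p = 0.018), as was the collagen gene Col4a1 (-0.53, adjusted p = 0.026), while the scavenger receptor crq was higher (0.44, adjusted p = 0.024). PPO1 and PPO2, the prophenoloxidases of crystal cells, varied widely within lines, PPO1 at 1352, 234 and 519 in B1 and 37.3, 423 and 564 in D1, and lost their calls in a fit to the 12 high arrays (adjusted p = 0.25 and 0.19). The phagocytosis receptor gene eater did so too (adjusted p = 0.27). Without replicate 1 or replicate 2 of C1 the list had 3 calls, without a filter 4 and with the 12 high arrays alone 2. With the stricter filter it had none, but that filter left members such as eater, PPO1 and PPO2 untested. The pan-neuronal gene elav, the 1 member called of 6, read 2537, 2548 and 2286 in A1, 2821, 2911 and 3115 in D1, 2027, 1705 and 886 in B1 and 826, 933 and 1408 in C1, with C1 at -1.09 ± 0.24 (adjusted p = 0.0019). The Hox gene Antp, which acts in the body wall part of the disc, read 12907, 12582 and 13046 in A1, 13698, 15528 and 15980.2 in D1, 6272, 6342 and 9682 in C1 and 11456, 9029 and 2533 in B1 (F test adjusted p = 0.0033, limma). In both genes A1 and D1 were above B1 and C1, and the third B1 array was the lowest of its line.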

How the data were processed

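RNA of wing discs was hybridised to 36 Affymetrix arrays. The deposited values are MAS5 signals, a linear intensity for each probe set, per the submitters' processing notes (version not given in the sources used here). Array means trimmed at the 2nd and 98th percentiles were 2497 to 2499, so the arrays had been scaled to 1 level. The number of arrays limits precision, and detection calls were not used here. Of 18952 probe sets, 183 controls were left out. The platform annotation gave 1 symbol to 13647, several to 402 and none to 4720. The log2 of the deposited intensity was fitted with limma 3.58.1 (lmFit, and eBayes with an intensity trend) in R 4.3.3, with 12 groups taken from the sample titles, 24 residual degrees of freedom, and Benjamini-Hochberg adjustment over all 9385 tested probe sets. A gene with several probe sets was read by its brightest one in gene lists. The P450 list left out Cyp1 and Cyp40, cyclophilins with a like symbol, after their values were seen. The fit was tested on simulated data.

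Named genes had 1 symbol and followed a rule. For each line they were the 4 highest and 4 lowest differences among called probe sets whose 3 arrays lay outside the other 9. To these were added the 10 widest splits of 2 lines against 2, at most 3 called members of each gene list with a range of 1 or more, and marker genes. Others were chosen after their values were seen. The lines and lists were chosen with earlier results of these data known. Alternatives were median centring, quantile normalization, a pseudocount of 29.4, no filter or one at the 75th percentile, no trend, a replicate block, the 12 high arrays alone, every probe set of a list, and each array left out in turn. Leaving out 2 C1 arrays or line C1 was chosen after seeing the data.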

Additional observations from a re-analysis of the deposited data

Results flagged for a closer look

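Over the 4 line means of each named gene, the gap between the farthest line and its neighbour was set against the whole range, and values above the critical value of Dixon's test are given here. These genes were chosen for standing apart, and chance alone gives such a gap in about 1 in 20 groups. The ratio was 0.969 for GstE11, where A1 stood apart. B1 stood apart at CG31673 (0.867), CG5953 (0.952), Ptr (0.894), grnd (0.930) and Cyp4e2 (0.853). C1 stood apart at both spas probe sets (0.901 and 0.898), Prosap (0.914) and Lsp2 (0.935), and the F-test call of Lsp2 was lost without either C1 array with high fat body signal. D1 stood apart at CG15822 (0.888), Ugt302K1 (0.845) and CG10877 (0.869).

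The difference of a high line from its 3 counterparts was also tested against the same difference of the low line of its population (limma, interaction term). The named genes below were chosen for a large difference in the high line. That difference is a part of the gap tested, so the choice itself favours large gaps. The test called 523 probe sets in population A, 406 in B, 753 in C and 258 in D. In population A the log2 gap between both effects was 4.08 at CG1894, 2.64 at Arc1, 1.70 at GstE1, -1.26 at CG31955, -3.60 at GstE11 and -5.20 at CG31436. In population B it was 1.74 at Pgant2, 1.47 at CG31955, 1.45 at CG10730, -2.37 at CG31673, -2.53 at GstE1 and -2.65 at CG5953. In population C it was 3.77 at CG10809, 2.48 at Prosap, 2.30 at the first spas probe set and -3.97 at the second, 1.61 at lola, -2.17 at CG1894, -2.48 at sls and -4.69 at Cyp6g1. In population D it was 2.49 at CG15822 and -3.13 at Ugt302K1.

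Among probe sets that the filter left out, the fat body gene Fbp1 reached 2015.7 in C1, while the low lines and founders reached at most 345.9. It reached 1563.9 on a California array. The glue gene Sgs4 reached 1327.5 on the third C1 array, against at most 1078 in the low lines and founders. Other glue genes were higher outside the high lines than on that array. Their highest signals there were 3997.3 for Sgs3, 3161.6 for Sgs5, 6674.2 for Sgs7 and 2905.7 for Sgs8. On the third C1 array they read 1851, 1947, 2292.4 and 1670.8.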

How the results depend on the processing

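Of 62 differences at named genes, 49 kept their direction and their side of the threshold under every alternative run, 13 lost their call in at least 1, and none turned its sign. With the 12 high arrays alone the F test called 1459 probe sets, D1 against the others 375, A1 against D1 409, B1 against C1 691 and B1 against D1 395, and 43.6% of the calls of A1 were higher. Higher calls were 30.5% in A1, 53.3% in B1 and 64.4% in C1 after median centring and 50.9% in A1 and 52.9% in D1 after quantile normalization. Quantile normalization turned the ribosomal protein medians to 0.017 in A1, -0.014 in C1 and -0.012 in D1, and left 61.7% of the calls of A1 with the same sign in A2. Without a filter, 43.5% of the calls of A1 were higher, and A1 was nearer to H at 65.5% and D1 at 69.5% of founder probe sets. With the stricter filter D1 had 339 calls and B1 against D1 394, higher calls were 50% in B1, 54.2% in C1 and 49.9% in D1, 53.5% of the calls of C1 had the same sign in C2, and the lines were nearer to H at 78.9%, 76.3%, 75% and 80.3% (A1 to D1). Without both C1 arrays with high fat body signal, 41.0% of the calls of C1 were higher, same-sign shares were 61.1%, 64.2%, 58.9% and 72.5% (populations A to D), and 195 probe sets stood apart from all other Massachusetts lines. Without line C1 the F test called 1240. The cause of these shifts was not tested.

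Leaving out each high array in turn gave 588 to 1068 calls for A1, 374 to 745 for B1, 903 to 1696 for C1 and 260 to 627 for D1, with 41.5 to 47.6% higher in A1 and 37.6 to 45.2% in B1. Pairs ranged over 344 to 738 (A1 and D1), 575 to 1427 (B1 and C1), 397 to 702 (B1 and D1) and 631 to 1087 (C1 and D1). Same-sign shares ranged over 65.6 to 70.9% in population A, 46.6 to 60.6% in B, 44.7 to 55.6% in C and 63.1 to 69.8% in D, and differences between high and low effects over 302 to 560 in A, 262 to 684 in B and 160 to 300 in D. With the title's replicate number as a replicate block the F test called 2334. The block changed none of these counts over all probe sets by over 1.5 times, but it raised 1 of 36 gene list counts by more. Deviations of arrays with the same number correlated at 0.0095 to 0.212 (18 pairs, median 0.074, against -0.057 for different numbers), and 10 of 12 arrays were closest to their own number, a hint from the data. Since not every correlation was over 0.1, the numbers were not taken to pair the arrays. Of 36 gene lists, the count called moved by over 1.5 times in 16 with the 12 high arrays alone (15 fell), in 10 without a filter, in 11 without both C1 arrays with high fat body markers, and in 10 of 32 with the stricter filter.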
